A study of Homo sapiens with 6 samples.

Results

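The 10 genes described here were NFE2L2, KEAP1, HMOX1, NQO1, GCLC, GCLM, TXNRD1, SLC7A11, SRXN1 and TXNIP, which encode the oxidative stress sensor of the cell and enzymes or proteins that it is known to control, together with TXNIP, an inhibitor of thioredoxin. They were chosen by name for their function. Chromatin accessibility was profiled by ATAC-seq, in which a transposase inserts sequencing adapters into open DNA, and the unit of measurement was an accessible region. A region was counted as a promoter region of a gene if any base of it came within 2 kb of the start of one of that gene's protein-coding transcripts, and as a distal region if it was no promoter region and the protein-coding start site nearest to its middle, within 100 kb, belonged to that gene. By these rules 68 of the 108542 regions in the table (0.0626%) belonged to the 10 genes, of which 15 were promoter and 53 were distal regions.

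The cells were EndoC-βH3, a human beta-like cell line derived from fetal pancreas and immortalized with hTERT and SV40 Large T-antigen, which an inducible Cre recombinase (CreER) can excise. The non-senescent group comprised 3 control libraries in which both transgenes remained, and the senescent group comprised 3 libraries from cells treated for 3 weeks with 4-hydroxy tamoxifen (4-OHT), which activates CreER. Both groups were labelled as wild type and as pancreatic beta cells, came from this 1 line, and were grown in a medium with β-mercaptoethanol, transferrin and selenite, each of which bears on redox or iron chemistry. Each library was made from 100000 cells.

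The signal used was the mean over the 6 libraries of normalized read counts in a region, as the authors calculated it. It has no replicate error, and differences between regions could not be set against the spread between libraries. Senescent and non-senescent cells are pooled in it, so that a difference between them was not analysed here. To compare regions of unequal width the signal was divided by the width of the region, and is given as signal per kb (normalized reads per kb). A percentile is the share of all promoter regions, or of all distal regions, with a signal per kb at or below that of the region.

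NRF2, the transcription factor encoded by NFE2L2, is held by KEAP1 in the cytoplasm and marked for degradation. Oxidants and electrophiles modify cysteines of KEAP1, NRF2 then accumulates, pairs with a small MAF protein and binds antioxidant response elements (AREs) near genes for glutathione synthesis, thioredoxin recycling, quinone reduction and heme breakdown. Beta cells are known for low levels of several antioxidant enzymes, and TXNIP is known in them as a gene induced by glucose.

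The sequences that carry the clearest AREs in these regions were read from the hg38 reference. The ARE core was searched as TGACNNNGC on both strands, and a strict form as TGACTCAGC, which contains the AP-1 site TGANTCA, so that every strict match is also a core match and an AP-1 match. The strict form occurred 7 times in 5 of the 68 regions, which belonged to HMOX1, NQO1, GCLC and TXNIP, and these are the sequences shown first, with the core matches in capitals and 10 bases on either side.
HMOX1 upstream region: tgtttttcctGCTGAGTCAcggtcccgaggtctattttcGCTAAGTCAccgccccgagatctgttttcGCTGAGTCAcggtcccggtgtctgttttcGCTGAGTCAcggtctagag
NQO1 promoter: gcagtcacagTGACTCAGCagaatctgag
GCLC promoter, second region: cgcacaaagcGCTGAGTCAcggggaggcg
GCLC promoter, remote region: caaatcactgTGACTCAGCacctgtactt
TXNIP distal: aggtggcagaGCTGAGTCAactgtatttc
All are written 5′ to 3′ on the strand of the gene, and GCTGAGTCA is the strict form read from the other strand. The HMOX1 stretch (chr22:35372009-35372124, plus strand, intergenic) held 4 core matches, each 29 bp from the next, of which the first, the third and the last were strict. The NQO1 site lay at chr16:69726997-69727025 and the TXNIP site at chr1:146007420-146007448. The GCLC sites lay at chr6:53548239-53548267 and at chr6:53616044-53616072. These 4 were read from the minus strand, on which their genes lie.

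Core matches that were not strict stood in other promoters of the group. They are shown for the modifier subunit GCLM, for the inhibitor KEAP1, for TXNRD1 and for SRXN1, again with the match in capitals, and were chosen for display after the matches had been counted.
GCLM promoter: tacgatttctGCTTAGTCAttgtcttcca
KEAP1 promoter: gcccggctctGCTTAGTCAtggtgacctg
TXNRD1 first promoter: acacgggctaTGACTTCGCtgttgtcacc
TXNRD1 internal promoter: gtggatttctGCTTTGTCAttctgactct
SRXN1 promoter: gcttaaaaagTGACACGGCtggaattcac
The GCLM match (chr1:93909446-93909474, minus strand) lay at -30 bp from the main start site, where negative values are upstream, and the KEAP1 match (chr19:10502784-10502812, minus strand) lay at 558 bp, in the 5′ untranslated exon. The TXNRD1 matches lay at -95 bp (chr12:104215670-104215698, plus strand) and at 71155 bp (chr12:104286920-104286948). The SRXN1 match lay at 610 bp (chr20:652576-652604, minus strand). A match describes the letters of the reference and is not evidence of binding.

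Each of the 10 genes had an accessible promoter region, compared with 78.7% of the 19676 protein-coding genes. The 15 promoter regions were 1072 bp wide in the median (range 432 to 2103), against 975 bp over all 20094 promoter regions. Their median GC content of 62.1% was close to the 62.2% of all promoter regions, and their median ratio of observed to expected CpG was 0.789 against 0.716. Median signal per kb was 847 (range 241 to 1666), against 507 over all promoter regions, whose middle 50% ran from 231 to 914. Above the median of all promoter regions stood 12 of the 15, and none fell in the lowest 25%. Distal regions were less uniform. Their median signal per kb was 155 (range 19.9 to 1543), against 168 over all 88448 distal regions, and 23 of 53 lay above the median of the class, 11 in the highest 25% and 12 in the lowest 25%.

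**Figure D1:**
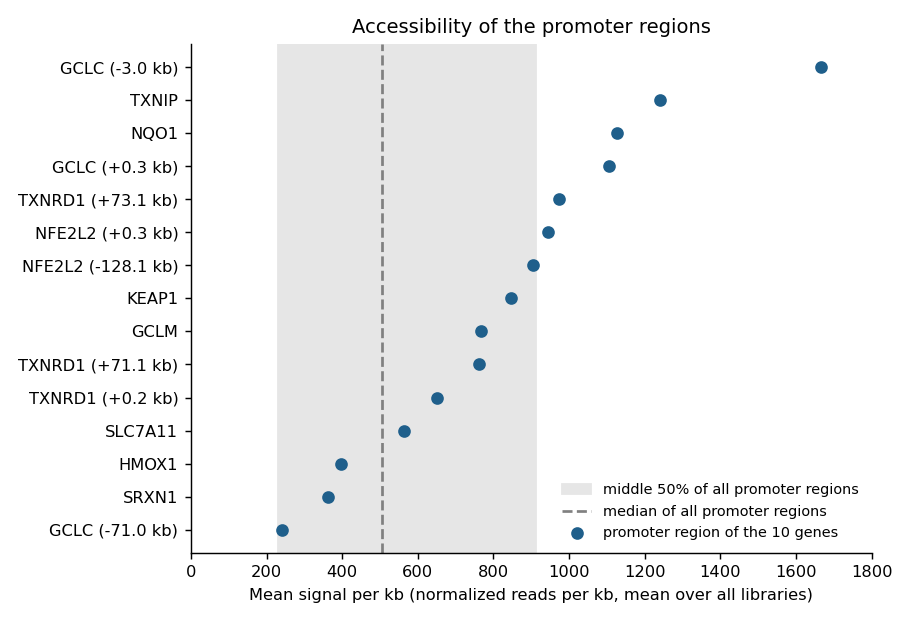
Mean signal per kb (normalized reads per kb, authors' mean over all 6 libraries) of the 15 promoter regions, with the distance of the region's middle from the main start site in brackets where a gene has several. The band spans the middle 50% of all 20094 promoter regions and the dashed line is their median of 507. To the right of the band stand 6 regions, the second GCLC region (1666), TXNIP (1239), NQO1 (1127), the GCLC region at the main start site (1105), the narrow internal TXNRD1 region (973) and the main NFE2L2 region (945), and HMOX1 (397), SRXN1 (361) and the remote GCLC region (241) to the left of the median.

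The sensor pair was accessible at both promoters. At NFE2L2, the region at the main start site (chr2:177263422-177265524) was the widest of the 15 promoter regions, at 2103 bp, and had 945 per kb (percentile 76.3). It covered 19 annotated start sites of the gene and held 3 ARE cores, and a noncoding gene on the other strand also starts within it. The other NFE2L2 promoter region (chr2:177392325-177393273), at -128072 bp, had 904 per kb (percentile 74.5). This one is also the promoter region of AGPS, an enzyme of ether lipid synthesis, and the start site nearest to its middle, 26 bp away, was that of AGPS. It counts for NFE2L2 since 9 annotated NFE2L2 start sites lie inside it, and the signal cannot be divided between the genes. The 7 distal regions of NFE2L2 ran from 19.9 to 243 per kb, all below its promoter regions. The strongest were an intronic region (chr2:177239864-177240405, 243 per kb, percentile 65.7), which held 2 ARE cores, and a region over a 5′ untranslated exon (chr2:177251970-177252780, 192 per kb, percentile 56.2), which held none. Distal regions made up 15.9% of the summed signal of the gene. With start sites of genes of any type, 2 of the 7 stayed with NFE2L2 and this share was 4.74%.

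KEAP1, the adaptor that presents NRF2 for ubiquitination, had 1 region in all (chr19:10502036-10503590), over its 5′ untranslated exons, with 847 per kb (percentile 71.7). KEAP1 alone of the 10 genes had no distal region, whereas 67.1% of protein-coding genes had one or more. The region held 2 ARE cores and no strict form. Among regions of all promoters with a width within 10% of it, 51.0% held a core.

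GCLC encodes the catalytic subunit of glutamate-cysteine ligase, which carries out the rate-limiting step of glutathione synthesis. Its highest signal was not at the main start site. The region there (chr6:53544336-53545263) had 1105 per kb (percentile 82.0), had the highest GC content of the 15 (73.2%) and held no ARE core. The second region (chr6:53547588-53548526), whose middle lay at -2956 bp over an alternative start site, had 1666 per kb (percentile 93.3), the highest of the 15 promoter regions, and held 3 ARE cores, one of them the strict form at -3152 bp shown above. The remote promoter region (chr6:53615590-53616674) lay in an intron of a long annotated transcript, 838 bp from its nearest GCLC start site. It had 241 per kb (percentile 26.1), the lowest of the 15, with the strict form at -70957 bp. This region counted for GCLC by the 2 kb rule but covered no GCLC start site. The start site of any gene type nearest to its middle was that of the noncoding gene LINC01564 (-339 bp). GCLC also had 13 distal regions, and 97.3% of protein-coding genes had that many or fewer. They ranged from 45.2 to 299.9 per kb, with the highest in an intron (chr6:53604502-53605674, percentile 72.9) and the next in the intergenic DNA beyond the gene (chr6:53437534-53437823, 174 per kb, percentile 51.7). Together they held 23.4% of the summed signal of the gene. With start sites of genes of any type, 3 of the 13 stayed with GCLC and the distal share was 4.14%. The highest was then nearest to LINC01564.

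GCLM, the modifier subunit of the same ligase, showed the opposite division. Its single promoter region (chr1:93908676-93910044) had 767 per kb (percentile 67.5). Of its 12 distal regions, 11 lay upstream of the main start site, and they carried 81.5% of the summed signal, against a median of 27.4% over the 17686 genes with a region. A pair of intergenic regions exceeded the promoter. The first (chr1:93958899-93959994), with its middle at -50016 bp, had 1543 per kb (percentile 98.5 among distal regions) and held no ARE core but an AP-1 match, and the other (chr1:93979893-93980914), at -70973 bp, had 1365 per kb (percentile 98.0) and held 2 ARE cores and an E-box. The 2 regions farthest upstream lay in ABCA4, the neighbouring gene, with 357 and 121 per kb. Distance to protein-coding start sites alone assigned these regions to GCLM. With start sites of genes of any type, 1 of the 12 stayed with GCLM, the weak intronic region, and the distal share was 3.02%. Of the pair above, the first was then nearest to the start of a pseudogene (-24202 bp) and the other to a start of ABCA4 27349 bp away. Just past the limit, at 103768 bp, lay another region with 1026 per kb that was not counted.

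SLC7A11, the cystine transporter that supplies cysteine for glutathione, was also accessible mainly away from its promoter. The promoter region (chr4:138241748-138242625) had 564 per kb (percentile 54.4) and no ARE core. The 10 distal regions held 76.5% of the summed signal, and 7 of them lay within the gene. The strongest were an intronic region at 66850 bp downstream of the start site (chr4:138175192-138175806, 774 per kb, percentile 93.0) and an intergenic one at -92465 bp (chr4:138334481-138335147, 742 per kb, percentile 92.5), which was the region of the 10 genes farthest inside the 100 kb limit. Neither held a core, and with start sites of any type both were nearest to noncoding genes, which left SLC7A11 with 5 distal regions and a distal share of 50.4%. Another pair of intronic regions had 501 and 405 per kb, the first with 2 ARE cores. A further 10 regions between 107682 and 362875 bp away had SLC7A11 as the nearest protein-coding gene but were past the limit. One of them had 1013 per kb.

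**Figure D2:**
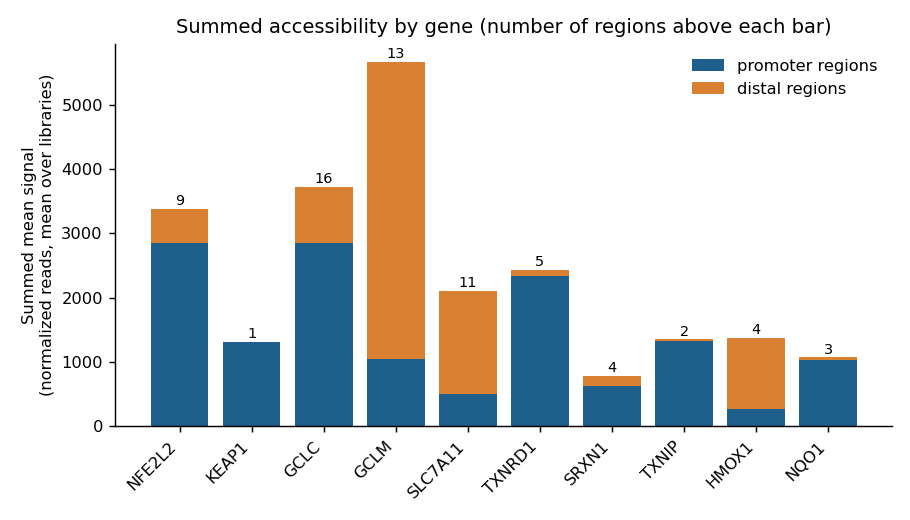
Summed mean signal (normalized reads, authors' mean over all 6 libraries, not divided by width) of each gene, with promoter regions below and distal regions above in each bar, and the number of regions on top. With distal regions assigned to the nearest protein-coding start site, they form most of the bar at GCLM (81.5%), HMOX1 (80.8%) and SLC7A11 (76.5%), and under 5% at NQO1, TXNRD1 and TXNIP.

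TXNRD1 is the cytosolic thioredoxin reductase, which uses NADPH to reduce thioredoxin. It had 3 promoter regions, as many as GCLC, whereas 7.20% of protein-coding genes had 3 or more. That share is not matched for the number of annotated start sites, of which TXNRD1 had 14 and GCLC 7. The TXNRD1 region at the main start site (chr12:104215472-104216549) had 652 per kb (percentile 60.6) with 3 ARE cores. The others stood over internal start sites, with their middles at 71090 and 73135 bp. The wider one (chr12:104286070-104287668) covered 11 start sites and had 762 per kb (percentile 67.1), and the narrower one (chr12:104288699-104289130) covered 1 and had 973 per kb (percentile 77.4). Without division by width, the narrower one had the lowest signal of the 3 (420). The wider one had 1218 and the region at the main start site 703. Both internal regions held 1 ARE core. The distal regions were an intronic one with 114 per kb and an upstream one with 78.1 per kb, which held 3.80% of the summed signal.

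SRXN1, sulfiredoxin, which restores overoxidized peroxiredoxins, had the lowest signal per kb when the strongest promoter region of each gene was compared. Without division by width, HMOX1 had the lowest promoter signal, 263 against 619 for SRXN1. The SRXN1 region (chr20:652202-653915) was wide (1714 bp) and had 361 per kb (percentile 37.9), with 1 ARE core. An annotated read-through gene with SCRT2 overlaps it. Of its 3 distal regions the strongest (chr20:663709-664103, 162 per kb, percentile 48.2) lay within both SCRT2 and that read-through gene. It was in an intron of the read-through gene and held an ARE core 4 bp from its middle. The next (chr20:645586-646163) had 101 per kb and none.

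TXNIP, which binds and inhibits thioredoxin and restrains glucose uptake, had 1 promoter region (chr1:145996082-145997153) with 1239 per kb (percentile 85.7). It held no ARE core but held the only carbohydrate response element found in the 68 regions, the pair CACGNG and CNCGNG parted by 5 bases that the glucose-responsive factors ChREBP and MondoA are known to bind. The pair occurred in 1.94% of all promoter regions (390 of 20094). It lies within the 150 bases before the start site, shown for the position of the element in capitals (chr1:145996580-145996729, minus strand).
TXNIP promoter: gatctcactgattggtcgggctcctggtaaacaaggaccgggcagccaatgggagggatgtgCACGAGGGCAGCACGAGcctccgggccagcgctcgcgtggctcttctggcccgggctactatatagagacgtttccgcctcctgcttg
The single distal region (chr1:146007214-146007486) was weak, with 78.6 per kb (percentile 16.4), although it held the strict ARE at -10855 bp. It made up 1.59% of the summed signal of TXNIP.

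HMOX1 encodes heme oxygenase, the stress-inducible enzyme that breaks down heme. Its promoter region (chr22:35380932-35381592) lay below the median of all promoter regions, with 397 per kb (percentile 41.1), and held no ARE core. Upstream, the region that holds the 4 printed cores (chr22:35371953-35372443), with its middle at -8898 bp, had 499 per kb, a higher value per length than the promoter, and stood at percentile 85.8 among distal regions. Its middle was 24 bp from the annotated start of a noncoding gene. With start sites of all transcripts of genes of any type, no distal region would count for HMOX1, this one included. At least 3 strict matches occurred in 7 of the 108542 regions, of which this was 1. The strongest HMOX1 region (chr22:35350453-35351811), at -29964 bp, had 594 per kb (percentile 89.1) and held no core, and the nearest start site of any transcript there was one of TOM1. Distal regions made up 80.8% of the summed signal of HMOX1.

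NQO1, the quinone reductase, was the reverse case. Its promoter region (chr16:69726212-69727123) had 1127 per kb (percentile 82.8), held the strict ARE at -451 bp, and left 4.03% of the summed signal to distal regions. The distal regions (chr16:69687415-69687585 and chr16:69654474-69654696) had 117 and 104 per kb and lay in introns of the neighbour NFAT5, with no ARE core.

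**Figure D3:**
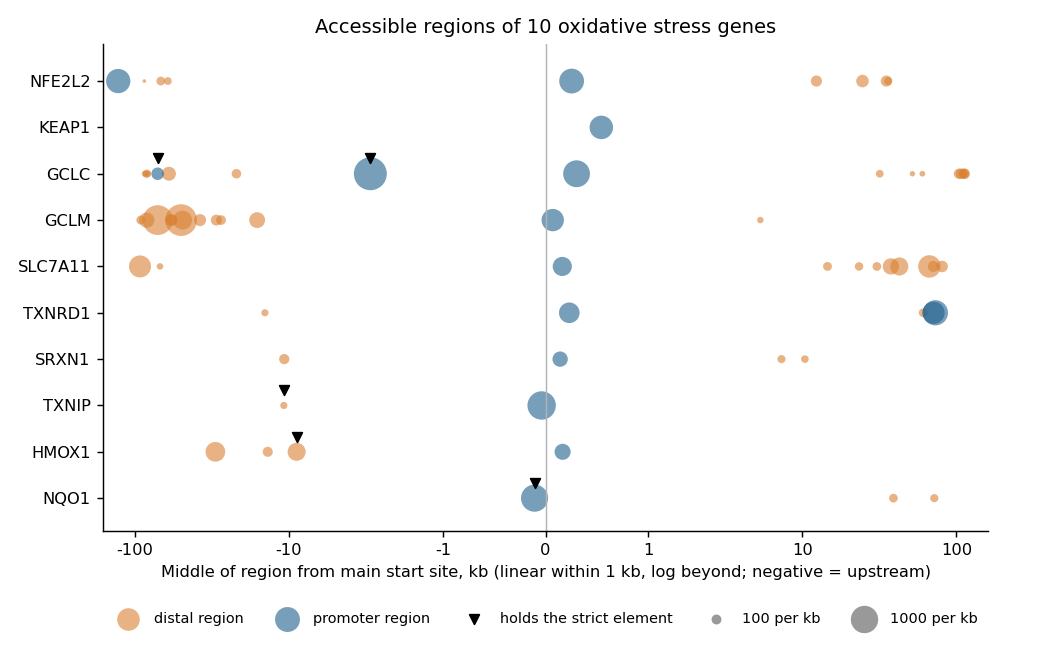
Position of the 68 regions around the main start site of each gene, in kb, linear within 1 kb and logarithmic beyond, with upstream to the left. Circle area is proportional to signal per kb, blue is promoter and orange distal, and triangles mark the 5 regions that hold the strict ARE. Large distal circles stand at GCLM (1543 and 1365 per kb), whereas the triangle at TXNIP stands over a weak region (78.6 per kb).

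Motif content was then compared between these regions and all regions of the table. An ARE core was present in 11 of 15 promoter regions (73.3%), against 35.9% of all promoter regions and 40.1% of those of like width (within 10%). In distal regions it was present in 21 of 53 (39.6%), against 21.2% of all and 19.5% of those of like width. For the strict form these shares were 3 of 15 (20.0%) against 1.48% of all promoter regions, and 2 of 53 (3.77%) against 1.53% of all distal regions. By gene, 7 of 10 had a core in a promoter region, against 47.6% of the protein-coding genes with a promoter region. A strict match in some region was present in 4 of 10, against 6.63% of the genes with a region. This share is not matched for the number of regions of a gene, and 4 of 18 beta cell markers had such a match as well. HMOX1, SLC7A11 and TXNIP were the 3 of the 10 genes without a promoter core. AREs in some of these genes helped to define the element, so these shares describe the genes and are no independent evidence, and no test was made.

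The other elements were counted in the same way. AP-1 matches occurred in 5 of 15 promoter regions (33.3%, against 14.5% of all promoter regions and 15.6% of those of like width) and in 11 of 53 distal regions (20.8%, against 18.0%). Since each strict ARE contains an AP-1 match, 3 of the 5 promoter regions and 2 of the 11 distal regions had one within the strict ARE. The E-box CACGTG, the site of MYC and of USF factors, was present in 6 of 15 promoter regions (40.0%, against 19.9% of all promoter regions and 22.9% of those of like width) and in 5 of 53 distal regions (9.43%, against 9.45%).

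**Figure D4:**
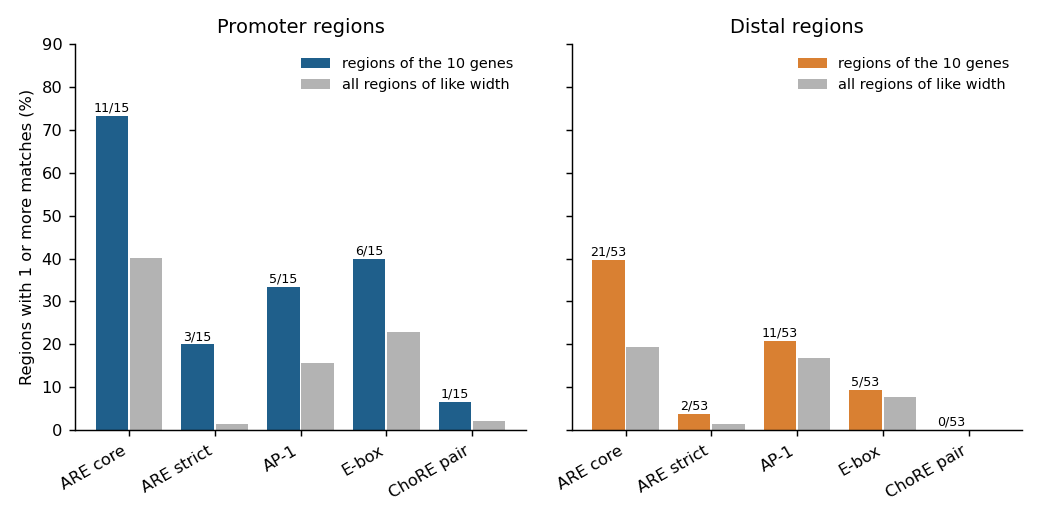
Share of regions with at least 1 match (%), for the promoter regions (left) and distal regions (right) of the 10 genes in color and for all regions of like width in grey, with counts above the bars. ARE core, TGACNNNGC; ARE strict, TGACTCAGC; AP-1, TGANTCA; ChoRE pair, the carbohydrate response element. The core was present in 73.3% of promoter regions against 40.1%, and the E-box in distal regions in 9.43% against 7.85%.

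To place the 10 genes in the wider pathway, each protein-coding gene with a promoter region was ranked by its strongest one, in signal per kb, among the 15493 such genes. The 10 genes had a median percentile of 63.1, with 7 above 50, from SRXN1 (24.5) and HMOX1 (27.4) to TXNIP (79.0) and GCLC (89.8). NFE2L2 (66.2), TXNRD1 (67.7) and KEAP1 (60.1) lay close together by this measure. With signal summed over the promoter regions of each gene they lay farther apart, at 86.8, 93.0 and 52.9. Of 65 further genes of the antioxidant network, 61 had a promoter region, with a median percentile of 54.4 and 34 above 50.

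Partners and regulators of NRF2 had the highest median of the 7 lists of the network, with 12 of 12 accessible and a median percentile of 76.9, from GSK3B (98.7), a kinase that marks NRF2 for degradation, to MAFK (9.81), a small MAF partner. Superoxide dismutases and catalase had 3 of 4 accessible with a median of 70.8. There SOD2 (97.0), the mitochondrial enzyme, was highest, SOD1 (52.3), the cytosolic one, was lowest, and SOD3 was the gene without a promoter region. Detoxification genes had 9 of 10 accessible with a median of 68.6, between UGDH (98.3), which makes UDP-glucuronate, and AKR1C2 (7.57), an aldo-keto reductase. Heme and iron genes had 6 of 6 and a median of 58.6, between FTL (85.0), ferritin light chain, and BLVRA (11.4), biliverdin reductase.

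The remaining lists lay below 50. The other glutathione genes had 12 of 14 accessible and a median of 49.1, between GSS (95.3), glutathione synthetase, which completes the pathway that GCLC and GCLM begin, and GSTP1 (3.64), a glutathione transferase. The NADPH-supplying enzymes had 6 of 6 and a median of 46.2, between IDH1 (86.1) and ME1 (22.5), both NADP-dependent dehydrogenases. The thioredoxin and peroxiredoxin system had 12 of 12 and a median of 45.5, between SESN1 (92.1), a stress-responsive sestrin, and TXNRD2 (18.5), the mitochondrial counterpart of TXNRD1. ARRDC4, the closest relative of TXNIP and likewise induced by glucose, was at 99.6. Among the 65 genes, 12 had the strict ARE in a promoter region and 16 in some region. Of all protein-coding genes, 1.64% and 5.96% did. The 65 genes were chosen for their place in this network, so these counts are no independent evidence.

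The labelled cell type was checked against marker genes. All 18 beta cell markers had a promoter region, with a median percentile of 81.8 and 12 above 50. Below 50 were GLP1R (9.60), G6PC2 (18.9), IAPP (30.4), KCNJ11 (35.6), SLC30A8 (38.4) and ABCC8 (42.2). Of 21 markers of other cell types (alpha, delta, acinar, duct, immune, endothelial, fibroblast and liver), 13 had one, with a median of 16.5. The 4 above 50 were IRX2, CPA1, KRT19 and APOA2, and the 8 without a promoter region were PRSS1, CFTR, PTPRC, CD3E, VWF, CDH5, PDGFRB and ALB.

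**Figure D5:**
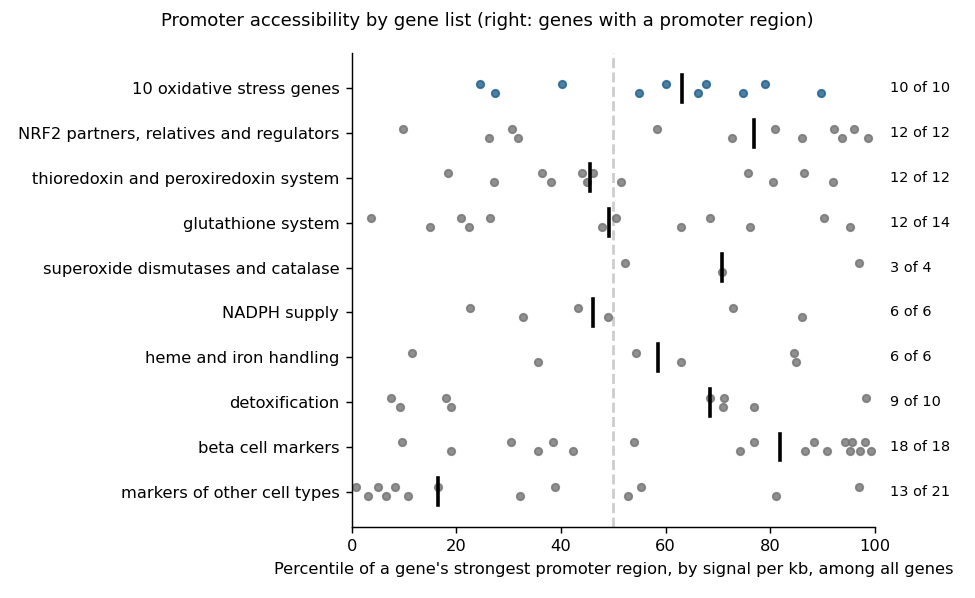
Percentile of the strongest promoter region of each gene among the 15493 protein-coding genes with one, by signal per kb, for the 10 genes (blue), 7 lists of the antioxidant network and the marker lists (grey). Black bars are medians, the dashed line is 50, and the numbers at the right are genes with a promoter region of all genes in the list. The 10 genes have a median of 63.1, beta cell markers 81.8 and markers of other cell types 16.5.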

How the data were processed

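ATAC-seq libraries of EndoC-βH3 cells, 3 non-senescent and 3 senescent by the labels, were used. As the study describes it, the authors trimmed the reads, mapped them to hg38 (Bowtie2), discarded mitochondrial and duplicate reads, corrected for the transposase offset, and counted reads in merged MACS2 peaks. The mean signal deposited by the authors is the average over all libraries of counts divided by DESeq2 size factors. Library depth is not held in the table. The other deposited columns hold the authors' comparison of the groups (fold change, error, statistic and p-values) and were not used. With no column for a single library, no comparison of groups was made.

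Start sites came from GENCODE 44 and sequence from hg38. Region starts were read as counted from 0 and printed 1-based. Python 3.11.15 and pandas 2.3.3 were used, and the steps were tested on simulated data. The genes, lists and motifs were chosen with earlier results of these data known. The text names all 10 genes with their promoter regions, their 2 distal regions of highest signal per kb and every region with the strict ARE, and of each list the highest and lowest gene. Other regions, list genes and markers named, the core matches displayed, the spacing of HMOX1 matches and the nearest start sites of any type were chosen after their values were seen. Alternatives were other promoter windows, distal limits, start sites, signal minimums, motif forms and gene values.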

Additional observations from a re-analysis of the deposited data

How the results depend on the processing

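Of 13 alternatives, 9 left their result within 1.5 times the value reported. The 15 promoter regions were 15 under all 3 alternatives. The 53 distal regions were 37 with a limit of 50 kb and 53 with promoter windows of 1 kb, but 18 when start sites of genes of any type decided the nearest gene, and 30 when a mean signal of at least 50 was required. Start sites of any type included those of noncoding transcripts of protein-coding genes. Under them, 16 of the 53 stayed with their gene (SLC7A11 5, GCLC 3, SRXN1 3, NFE2L2 2, GCLM, TXNRD1 and TXNIP 1 each, HMOX1 and NQO1 0). The distal share of the summed signal was then 3.02% at GCLM, 50.4% at SLC7A11, 4.14% at GCLC and 4.74% at NFE2L2. The share of regions with an ARE core, 47.1%, was 30.9% in the middle 300 bp of each region (all regions 13.0%), 7.35% with the strict form (all regions 1.52%) and 57.8% at a mean signal of at least 50 (all regions 28.7%). The median percentile of 63.1 was between 59.97 and 64.4.

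No paired analysis was possible because no value per library is held in the table, although both groups carry replicate numbers 1 to 3. For the same reason no replicate was left out in turn. Wide regions hold more letters and hence more matches, which shares over regions of like width allow for. The assignment of distal regions rests on distance alone. The table does not state whether its starts count from 0, which bears on coordinates by 1 base.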

Other observations

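Across all distal regions, ranked into 10 classes by signal per kb, the share with a strict ARE was 0.158% in the lowest class and 2.69% in the highest. Regions also differed in width, and per length of sequence the strict form occurred 32.5 times per Mb in the second class and 33.3 times per Mb in the highest, against 7.63 in the lowest. AP-1 matches were likewise fewer in the lowest class, with 94.0 per Mb against 378 to 433 in the others. In promoter regions the strict form occurred 17.8 times per Mb in the lowest class and 15.6 in the highest. The 2 distal regions of the 10 genes with a strict ARE stood far apart in signal, at percentile 85.8 (HMOX1) and 16.4 (TXNIP). These classes were formed after the matches of the 10 genes had been seen.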
